A study of Oryza sativa with 12 samples.

Results

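Wall-associated kinases are receptor-like kinases of the plant plasma membrane. Their extracellular side carries a galacturonan-binding region, often with EGF-like repeats, and contacts pectin of the cell wall, while the cytoplasmic side is a serine/threonine kinase. In Arabidopsis they bind pectin and the oligogalacturonides released when pectin is broken, and they are known for roles in cell expansion and defence. The family is larger in rice, where single members are known to raise or lower resistance to the blast fungus. The genes described here are those whose deposited description names a wall-associated kinase or OsWAK and that were listed at both NaCl levels, which gave 13 of the 24922 genes listed at both levels. Another 4 genes matched the description at only 1 NaCl level and are given separately, so 17 genes matched in all. The choice used the written description and the listing of a gene at both levels, and the filter that decided the listing is not given in the sources used here.

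The libraries came from roots of rice seedlings grown for 7 days and then kept for 24 h at 0 or 150 mM NaCl. TNG67 is the untransformed cultivar, and OE1 is a transgenic line of TNG67 that carries OsERF106MZ, an AP2/ERF transcription factor gene, behind the constitutive CaMV 35S promoter. The 4 groups were TNG67 at 0 mM NaCl, TNG67 at 150 mM NaCl, OE1 at 0 mM NaCl and OE1 at 150 mM NaCl, with 3 libraries in each, every library from pooled seedlings of a biological replicate. OE1 is a single transgenic line, so a difference from TNG67 cannot be told apart from a feature of that line. The values are normalized counts, read here as the reads of a library divided by its own size factor, from libraries of 16326661 to 22426883 reads (median 17756894).

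The overexpressed OsERF106MZ averaged 876 ± 112 and 723 ± 54.6 (SD, n = 3) in TNG67 without and with salt, and 9840 ± 615 and 9934 ± 531 in OE1. The root genes Lsi1, Lsi2 and CASP1 were read in all 12 libraries, at 3571 to 20120 for Lsi1, 4758 to 23926 for Lsi2 and 473 to 1488 for CASP1. Each had a lower mean with salt than without in both genotypes. The Lsi1 mean went from 17857 to 3857 in TNG67 and from 19463 to 5613 in OE1. That of Lsi2 went from 20577 to 5345 and from 22943 to 8276, and that of CASP1 from 1256 to 508 and from 948 to 601. Leaf genes (chlorophyll a/b-binding proteins and the Rubisco small subunit, 13 genes) made up at most 0.0619% of the reads of a library, yet their summed level moved with the groups. It was 8171 to 11440 in TNG67 and 3240 to 5233 in OE1 at 0 mM NaCl, and 345 to 457 and 390 to 656 at 150 mM NaCl. Among the 12 of these leaf genes tested, 9 were called lower under salt in each genotype, against 9.75% of all genes in TNG67 and 5.84% in OE1. Compared with TNG67, 4 were called lower in OE1 at 0 mM NaCl and 2 higher at 150 mM NaCl, against 2.89% and 2.44% of all genes. A call was an adjusted p below 0.05 in limma with a log2 fold change beyond 1. None of the leaf genes was at 0 in every library of a group where it was listed. The part of these tissue markers in the results on the kinases was not tested. In bulk roots, fewer cells of a type and less RNA per cell cannot be told apart.

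The 13 kinase genes carry several kinds of description. Os03g0225700 is described as a wall-associated kinase of the biotic stress response, Os09g0561500 as one of rice blast resistance, Os09g0562600 as a positive regulator of blast resistance and Os10g0180800 as a negative regulator of blast resistance. The others are named only by similarity, to WAK53a (Os04g0599000), to WAK80 (Os09g0471200, Os09g0471400 and Os09g0471800), to wall-associated kinases 3 and 4 (Os06g0142500 and Os04g0308100) or to wall-associated kinase-like proteins (Os04g0598500, Os04g0598800 and Os09g0561000). The locus numbers place many of them side by side. On chromosome 4 a run from Os04g0598500 to Os04g0599000 held 4 genes matching the description, with no other listed gene among them. On chromosome 9 a run from Os09g0471200 to Os09g0471800 held 3 with 4 other genes in between, and a run from Os09g0561000 to Os09g0562600 held 4 with 1 other gene. In all, 9 of the 13 kinase genes lay in such runs. Reads that 2 near-identical neighbours share could have been split between them in counting, so the values of neighbours are uncertain to that extent.

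**Figure D1:**
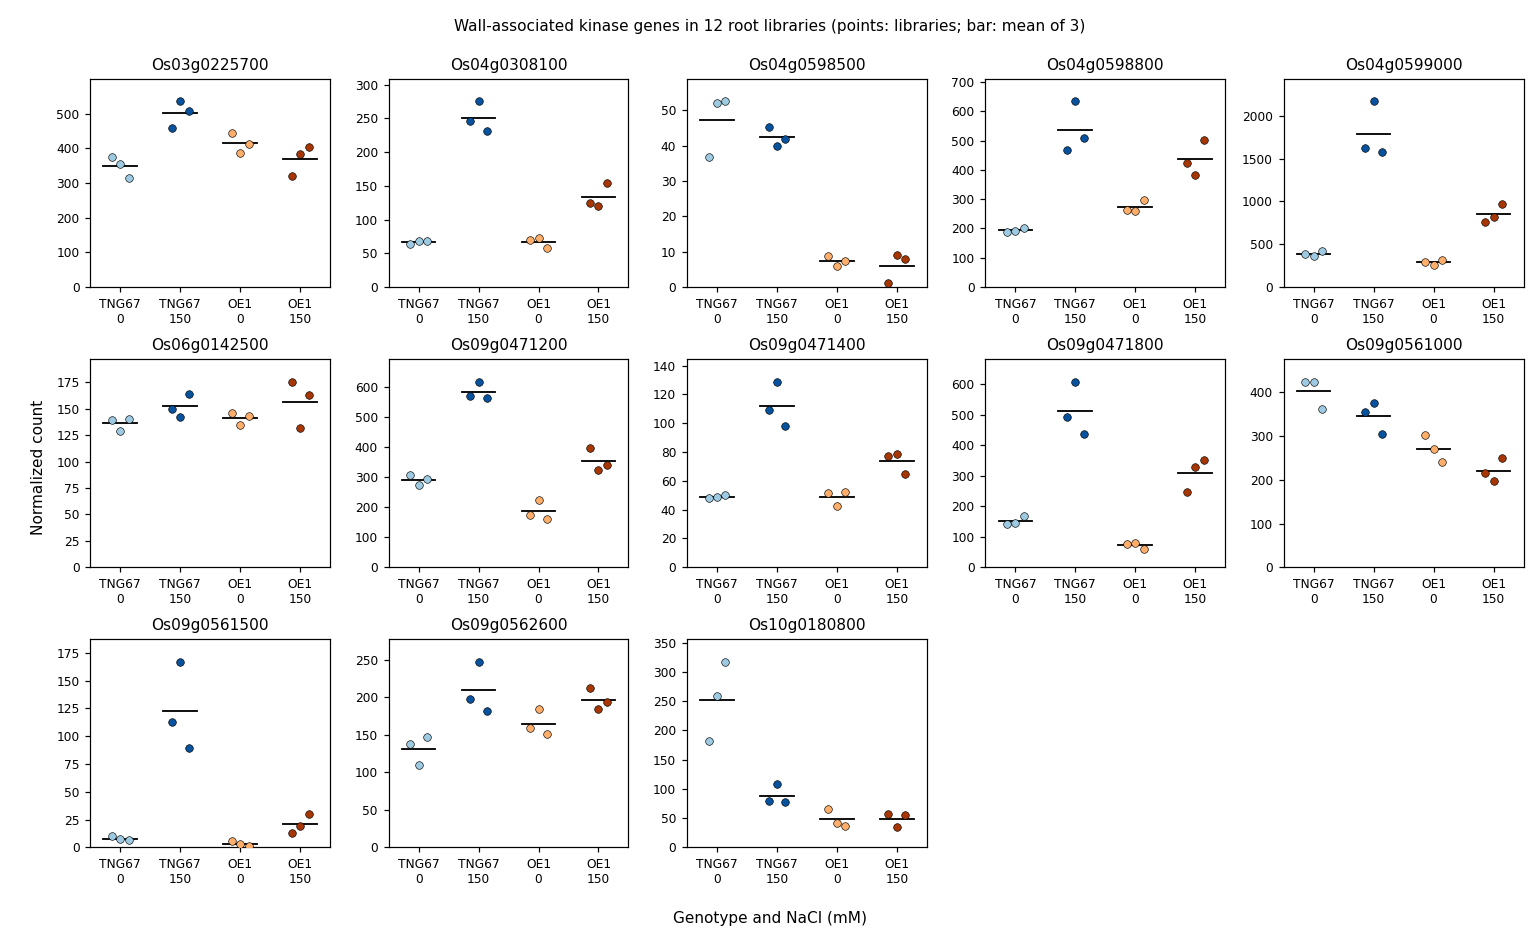
Normalized count (vertical axis, from 0, a separate scale for each gene) of the 13 wall-associated kinase genes in each of 12 root libraries, by genotype and NaCl level in mM on the horizontal axis. Each point is a library and each bar the mean of 3 libraries. In 9 of the 13 genes the highest bar is that of TNG67 at 150 mM NaCl, while Os04g0598500 and Os10g0180800 are highest in TNG67 at 0 mM NaCl and low in both OE1 groups.

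The first comparison asked how the wall-associated kinase genes respond to salt in TNG67 roots. Of the 13, 6 rose and 1 fell at 150 mM NaCl, a call being an adjusted p below 0.05 in limma together with a log2 fold change beyond 1. Over all genes tested the same call was reached by 9.53% upwards and 9.75% downwards. The largest increase was that of Os09g0561500, the gene described for blast resistance, followed by the WAK53a-like Os04g0599000, and the only decrease was that of Os10g0180800, the gene described as a negative regulator of blast resistance. The median log2 fold change of the 13 was 1.00, and that of all genes tested was 0.00.

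Os09g0561500 was at 10.1, 7.42 and 6.44 normalized counts in the 3 TNG67 libraries at 0 mM NaCl and at 113, 167 and 89.7 in those at 150 mM NaCl. The gene was read only a few times a library without salt, and the salt libraries lay far above those without overlap. The mean was 15.4-fold higher with salt, and the log2 fold change was 3.76 ± 0.42 (SE; limma, adjusted p = 3.96e-07).

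Os04g0599000, similar to WAK53a, was at 383, 364 and 416 without salt and at 1626, 2171 and 1577 with salt. The groups did not overlap, and the log2 fold change was 2.19 ± 0.12 (SE; limma, adjusted p = 2.77e-10). Its neighbour Os04g0598800, a wall-associated kinase-like gene, went from 189, 190 and 203 to 466, 634 and 508, a log2 fold change of 1.45 ± 0.12 (SE; limma, adjusted p = 7.77e-09). Both neighbours were therefore higher in every salt library. The third member of that run, Os04g0598500, showed no such difference, with 36.9, 51.9 and 52.6 without salt and 45.2, 40.0 and 42.0 with salt (log2 fold change -0.13 ± 0.46 SE, limma adjusted p = 0.827).

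Among the WAK80-like genes of chromosome 9, Os09g0471800 was at 141, 146 and 168 without salt and at 491, 608 and 435 with salt. Its log2 fold change was 1.74 ± 0.16 (SE; limma, adjusted p = 3.87e-08). Os09g0471400 moved the same way, from 48.1, 48.8 and 50.4 to 109, 129 and 98.3 (log2 fold change 1.17 ± 0.17 SE, limma adjusted p = 1.41e-05). The neighbour Os09g0471200 stood just outside the fold threshold. It was at 307, 275 and 292 without salt and at 568, 617 and 563 with salt, without overlap, and its log2 fold change of 0.9995 (SE 0.12, limma adjusted p = 7.59e-07) missed the threshold of 1 by less than its error. Without single libraries this value passed the threshold, for example at 1.04 without TNG67 at 0 mM NaCl replicate 1. The same holds without TNG67 at 0 mM NaCl replicate 3 (1.00) and without TNG67 at 150 mM NaCl replicate 1 (1.02) or replicate 3 (1.02).

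Os04g0308100, similar to wall-associated kinase 4, was at 63.8, 67.8 and 68.6 without salt and at 246, 275 and 231 with salt. The 3 libraries of each group lay close together, and the log2 fold change was 1.89 ± 0.15 (SE; limma, adjusted p = 3.88e-09). Os10g0180800 went the other way, from 182, 259 and 317 to 79.3, 108 and 78.2. The lowest library without salt was still above the highest with salt, and expression fell by 1.48 on the log2 scale (SE 0.25, limma adjusted p = 8.21e-05).

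The remaining members changed less or not detectably. The biotic stress gene Os03g0225700 was at 375, 354 and 313 without salt 460, 535 and 508 with salt, and Os09g0562600, described as a positive regulator of blast resistance, was at 138, 109 and 147 and then 198, 247 and 182. Both passed an adjusted p below 0.05 in limma without reaching the fold threshold, with log2 fold changes of 0.53 ± 0.10 and 0.67 ± 0.14 (SE). Os09g0561000, similar to a wall-associated kinase-like 2, was at 424, 425 and 361 without salt and 356, 376 and 305 with salt, and its groups overlapped (limma, adjusted p = 0.12). Os06g0142500, which the rule for naming genes did not reach and which is named after its values were seen, was at 129 to 141 without salt and 143 to 164 with salt (limma, adjusted p = 0.337).

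With the adjusted p alone, 9 of the 13 genes were higher and 1 was lower under salt in TNG67, against 27.4% and 27.2% of all genes. The groups did not overlap in 11 of the 13, with 10 above and 1 below, against 30.8% and 30.0% of all genes. Replicate 2 of TNG67 at 150 mM NaCl was the highest library of its group in 11 of the 13 genes, against 36.4% of all genes. Without it 7 of the 13 were called, as with it, and the 6 increases had log2 fold changes of 1.06 (Os09g0471400) to 3.52 (Os09g0561500).

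In OE1 roots the same salt treatment raised 3 of the 13 genes and lowered none, against 6.66% and 5.84% of all genes. The 3 were Os09g0561500, Os09g0471800 and Os04g0599000, each of which also rose in TNG67. The median log2 fold change of the 13 genes was 0.58, and that of all genes 0.01.

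Os09g0561500 was at 5.52, 3.03 and 1.04 normalized counts in OE1 without salt, which is 1 to 5 reads a library, and at 12.99, 19.1 and 30.5 with salt. The salt libraries lay above the others, with a log2 fold change of 2.46 ± 0.42 (SE; limma, adjusted p = 0.000105). Os09g0471800 went from 77.2, 80.8 and 58.4 to 247, 327 and 351, a log2 fold change of 2.08 ± 0.16 (SE; limma, adjusted p = 7.7e-09). Os04g0599000 went from 295, 256 and 321 to 764, 816 and 972, a log2 fold change of 1.54 ± 0.12 (SE; limma, adjusted p = 3.86e-08). For none of these genes did a library without salt reach the level of a library with salt.

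Another 4 genes passed the adjusted p alone under salt in OE1, so 7 of 13 were higher and 0 lower on that rule, against 19.6% and 19.2% of all genes. Os04g0308100 was at 69.5, 72.7 and 58.4 without salt and 125, 121 and 154 with salt, a log2 fold change of 0.98 ± 0.15 (SE; limma, adjusted p = 2.81e-05). Os09g0471200 was at 173, 223 and 161 and then 396, 322 and 339, a log2 fold change of 0.93 ± 0.12 (SE; limma, adjusted p = 3.56e-06). Both sat just below the fold threshold, and leaving out OE1 at 0 mM NaCl replicate 2 brought both past it, at 1.04 and 1.07, so that 5 genes were called. Leaving out OE1 at 0 mM NaCl replicate 1, or OE1 at 150 mM NaCl replicate 1 or 2, did so for Os04g0308100 alone (1.01, 1.02 and 1.05). Os04g0598800 and Os09g0471400 were the other 2, at log2 fold changes of 0.67 ± 0.12 and 0.58 ± 0.17 (SE; limma, adjusted p = 0.000172 and 0.012). Os09g0471400 no longer passed without OE1 at 0 mM NaCl replicate 2 (limma, adjusted p = 0.0555).

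Os10g0180800, the gene that fell in TNG67, was at 65.1, 42.4 and 37.6 in OE1 without salt and at 57.0, 34.1 and 55.4 with salt. The groups overlapped fully, and the log2 fold change was 0.02 ± 0.25 (SE; limma, adjusted p = 0.966). Over the 13 genes, 8 had every salt library above the others and 0 had every one below, against 25.3% and 24.3% of all genes.

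**Figure D2:**
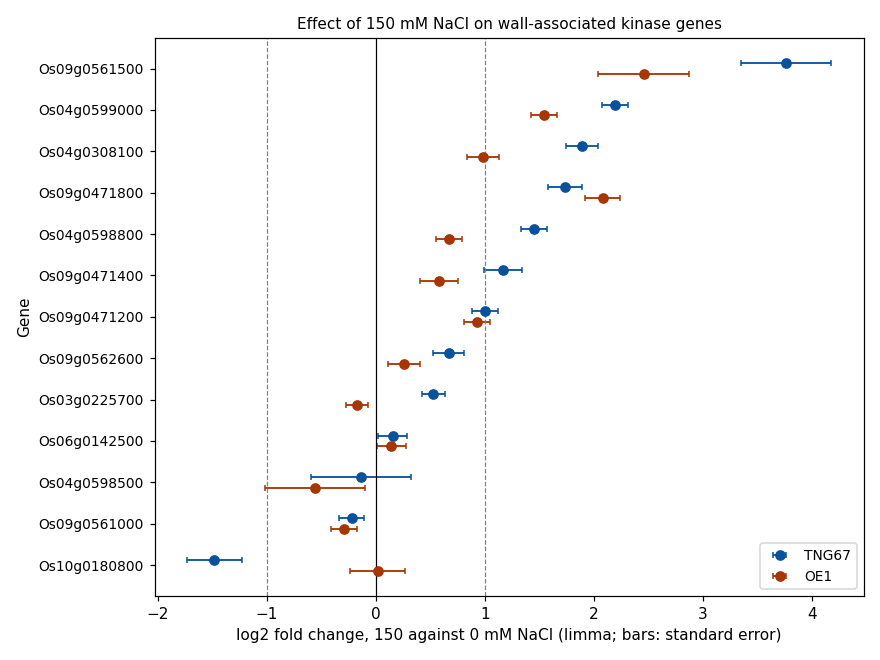
Log2 fold change at 150 against 0 mM NaCl (horizontal axis) of the 13 wall-associated kinase genes (vertical axis) in TNG67 (blue) and OE1 (brown), from limma on log2 of the normalized count plus 1, with bars of 1 standard error. Dashed lines mark the fold threshold of 1 in either direction. Os09g0561500, Os04g0599000 and Os09g0471800 lie beyond 1 in both genotypes, and Os10g0180800 lies at -1.48 in TNG67 and at 0.02 in OE1.

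The comparison of OE1 with TNG67 at 0 mM NaCl asked how the transgenic line differs from its parent cultivar without salt. None of the 13 kinase genes was called higher and 4 were called lower, against 2.37% and 2.89% of all genes. The 4 were Os04g0598500 and Os10g0180800, the largest decreases, and Os09g0561500 and Os09g0471800. The groups did not overlap in 10 of the 13, with 3 above and 7 below, against 16.9% and 21.4% of all genes. The median log2 fold change was -0.42, and that of all genes -0.02.

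Os04g0598500, the wall-associated kinase-like gene at the start of the chromosome 4 run, was at 36.9, 51.9 and 52.6 normalized counts in TNG67 and at 8.83, 6.06 and 7.30 in OE1. The mean was 6.37-fold lower in OE1, with no overlap, and expression fell by 2.52 on the log2 scale (SE 0.46, limma adjusted p = 0.000767). Os10g0180800 was at 182, 259 and 317 in TNG67 and at 65.1, 42.4 and 37.6 in OE1. Its mean was 5.23-fold lower, again with no overlap, and expression fell by 2.37 on the log2 scale (SE 0.25, limma adjusted p = 4.55e-06).

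Os09g0471800, similar to WAK80, was at 141, 146 and 168 in TNG67 and at 77.2, 80.8 and 58.4 in OE1, a log2 fold change of -1.07 ± 0.16 (SE; limma, adjusted p = 0.000102). It lay close to the fold threshold, and its log2 fold change was -0.998 without TNG67 at 0 mM NaCl replicate 3 and -0.93 without OE1 at 0 mM NaCl replicate 3, so the call was lost. Os09g0561500 was at 10.1, 7.42 and 6.44 in TNG67 and at 5.52, 3.03 and 1.04 in OE1, a log2 fold change of -1.23 ± 0.42 (SE; limma, adjusted p = 0.0411). In OE1 these values are 1 to 5 reads a library. The adjusted p was 0.177 in edgeR and 0.128 in DESeq2 on the reads, and dropping single libraries lost the call in 6 of 12 cases, the log2 fold change reaching -0.79 without OE1 at 0 mM NaCl replicate 3. The other 5 were those without TNG67 at 0 mM NaCl replicate 1 (-1.07), 2 (-1.27) or 3 (-1.36), without TNG67 at 150 mM NaCl replicate 1 (-1.23) and without OE1 at 0 mM NaCl replicate 2 (-1.28). Only 2 of the 13 genes were called without TNG67 at 0 mM NaCl replicate 3 or without OE1 at 0 mM NaCl replicate 3, and those were Os04g0598500 and Os10g0180800.

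On the adjusted p alone 7 genes were lower and 1 was higher in OE1 at 0 mM NaCl, against 12.5% and 9.55% of all genes. The lower ones included Os09g0471200 at -0.66 ± 0.12, Os09g0561000 at -0.57 ± 0.12 and Os04g0599000 at -0.42 ± 0.12 (log2 fold change ± SE; limma, adjusted p = 0.000512, 0.00188 and 0.0213). Os04g0599000 missed the threshold in edgeR (adjusted p = 0.0531) and, in limma, without TNG67 at 0 mM NaCl replicate 1 (0.0585) or 3 (0.0787) or OE1 at 0 mM NaCl replicate 1 (0.0567) or 2 (0.0899). Together with the losses of Os09g0561500, this left 5 lower genes in edgeR and 5 to 7 with a library left out. Os09g0561000 was at 424, 425 and 361 in TNG67 and at 302, 270 and 242 in OE1, which did not overlap. The gene that was higher was Os04g0598800, at 189, 190 and 203 in TNG67 and 263, 259 and 297 in OE1 (log2 fold change 0.49 ± 0.12 SE, limma adjusted p = 0.00608). Within the chromosome 4 run, then, Os04g0598500 and Os04g0598800 differed between the genotypes in opposite directions.

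Replicate 3 of TNG67 at 0 mM NaCl was the highest library of its group in 9 of the 13 genes, against 35.9% of all genes. The effect of leaving it out is the drop from 4 to 2 called genes given above.

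At 150 mM NaCl, OE1 was called lower than TNG67 in 3 of the 13 genes and higher in none, against 3.49% and 2.44% of all genes. The 3 were Os04g0598500, Os09g0561500 and Os04g0599000. On the adjusted p alone 10 of the 13 were lower and none higher, against 14.6% and 11.2% of all genes, and the same number, 10, had every OE1 library below every TNG67 library and 0 above, against 22.5% and 18.6%. The median log2 fold change was -0.73, against 0.00 for all genes.

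Os09g0561500, described for blast resistance, was at 113, 167 and 89.7 in TNG67 and at 12.99, 19.1 and 30.5 in OE1. The lowest TNG67 library was still well above the highest OE1 library, and expression fell by 2.54 on the log2 scale (SE 0.42, limma adjusted p = 0.000187), a mean 5.90-fold lower. Os04g0598500 was at 45.2, 40.0 and 42.0 in TNG67 and at 1.00, 9.04 and 8.02 in OE1. It fell by 2.94 on the log2 scale (SE 0.46, limma adjusted p = 0.000137), and by 2.19 without OE1 at 150 mM NaCl replicate 1, the library with 1 read. The gene was thus low in all 6 OE1 libraries, with and without salt.

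Os04g0599000, similar to WAK53a, was at 1626, 2171 and 1577 in TNG67 and at 764, 816 and 972 in OE1. The groups were far apart, with a mean 2.11-fold lower in OE1 and a log2 fold change of -1.07 ± 0.12 (SE; limma, adjusted p = 8.96e-06), but the value lay near the fold threshold. It was -0.92 without TNG67 at 150 mM NaCl replicate 2, -0.99 without OE1 at 150 mM NaCl replicate 1 and -0.98 when the libraries were scaled by their totals, and the call was lost in each case.

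The other genes lower on the adjusted p alone spanned -0.91 to -0.44. Os04g0308100 was at 246, 275 and 231 in TNG67 and 125, 121 and 154 in OE1 (log2 fold change -0.91 ± 0.15 SE, limma adjusted p = 0.000155), and it passed the fold threshold, at -1.02, without OE1 at 150 mM NaCl replicate 3. Os10g0180800 was at 79.3, 108 and 78.2 in TNG67 and 57.0, 34.1 and 55.4 in OE1 (log2 fold change -0.87 ± 0.25 SE, limma adjusted p = 0.017), and no longer passed without TNG67 at 150 mM NaCl replicate 2 (0.0774) or OE1 at 150 mM NaCl replicate 2 (0.0862). The 3 WAK80-like genes Os09g0471200, Os09g0471800 and Os09g0471400 were at -0.73, -0.73 and -0.60, Os09g0561000 at -0.64 and Os03g0225700 at -0.44. Of these, Os09g0471400 no longer passed without TNG67 at 150 mM NaCl replicate 2 (limma, adjusted p = 0.0826) or OE1 at 150 mM NaCl replicate 3 (0.0721). Os04g0598800 (-0.29), Os09g0562600 (-0.08) and Os06g0142500 (0.03) did not pass.

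Counted over both NaCl levels, 2 genes, Os04g0598500 and Os09g0561500, were called lower in OE1 each time, against 319 of the 24922 genes (1.28%). The call of Os09g0561500 at 0 mM NaCl was lost in edgeR, in DESeq2 and in 6 of the 12 fits that left out a library. On the adjusted p alone 7 of the 13 were lower both times, against 5.20% of all genes, a count that includes the passes of Os04g0599000, Os09g0561500 and Os10g0180800 that single libraries decided. Over all 4 comparisons 8 of the 13 genes were called at least once and 5 never, against 24.7% of all genes called at least once. The 5 were Os03g0225700, Os06g0142500, Os09g0471200, Os09g0561000 and Os09g0562600.

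**Figure D3:**
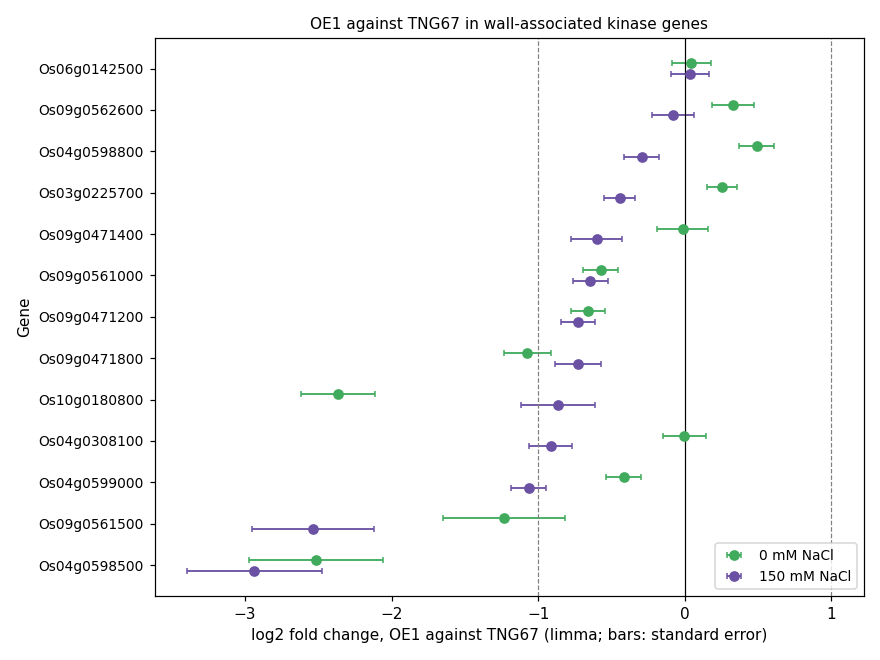
Log2 fold change of OE1 against TNG67 (horizontal axis) of the 13 wall-associated kinase genes (vertical axis) at 0 mM NaCl (green) and 150 mM NaCl (purple), from limma on log2 of the normalized count plus 1, with bars of 1 standard error. Dashed lines mark the fold threshold of 1 in either direction. At 150 mM NaCl 12 of the 13 values lie below 0, and Os04g0598500 lies below -2 at both NaCl levels.

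Whether salt acted differently in OE1 than in TNG67 was tested as an interaction, the salt effect in OE1 minus that in TNG67, called at an adjusted p below 0.05 in limma. The test passed for 5 of the 13 genes, 4 with a less positive and 1 with a more positive salt effect in OE1, against 6.17% and 5.20% of all genes. This comparison uses the same 12 libraries as those above and is not separate evidence.

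The 4 with a negative interaction were Os04g0308100 at -0.91 ± 0.21, Os04g0598800 at -0.78 ± 0.17, Os03g0225700 at -0.70 ± 0.15 and Os04g0599000 at -0.65 ± 0.17 (log2 scale ± SE; limma, adjusted p = 0.00948, 0.00653, 0.00552 and 0.0235). For Os04g0599000 the salt effect was 2.19 in TNG67 and 1.54 in OE1, an increase in both genotypes. For Os03g0225700, the biotic stress gene, it was 0.53 in TNG67 and -0.17 in OE1, and in OE1 the values of 444, 388 and 411 without salt and 320, 384 and 403 with salt overlapped. The interaction of Os04g0599000 lost its call in 6 of the 12 fits that left out a library (OE1 or TNG67 at 0 mM NaCl replicate 1, TNG67 at 0 mM NaCl replicate 2, OE1 at 0 mM NaCl replicate 3, OE1 at 150 mM NaCl replicate 1 or 2), with an adjusted p of at most 0.0619, while the other 4 kept theirs in each of the 12.

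The gene with the positive interaction was Os10g0180800, at 1.50 ± 0.36 (SE; limma, adjusted p = 0.0128). It fell under salt in TNG67 and was at a similar low level in OE1 with and without salt, so that the 6 OE1 libraries, at 34.1 to 65.1, all lay below the 6 TNG67 libraries, at 78.2 to 317. Os09g0561500 had a larger negative estimate than the 4 genes above, -1.31 with an error of 0.59, and did not pass (limma, adjusted p = 0.163). Without OE1 at 0 mM NaCl replicate 3, which had 1 read of this gene, the estimate was -1.75 and passed (limma, adjusted p = 0.0437). For the WAK80-like Os09g0471800 and Os09g0471200 the estimates were 0.34 ± 0.22 and -0.07 ± 0.16 (SE; limma, adjusted p = 0.353 and 0.831).

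Genes that matched the description at 1 NaCl level only could be compared between genotypes at that level, in limma on the 6 libraries and all 25953 genes listed at 150 mM NaCl or all 25580 listed at 0 mM NaCl. Os04g0598900, a wall-associated kinase-like gene that stands between Os04g0598800 and Os04g0599000, was listed at 150 mM NaCl only. It was at 131, 126 and 114 in TNG67 and at 48.0, 48.2 and 62.6 in OE1, which did not overlap, a mean 2.34-fold lower (log2 fold change -1.22 ± 0.17 SE, limma adjusted p = 0.000159). Os09g0561600, next to Os09g0561500 and described for early embryo sac development and positive regulation of blast resistance, was also listed at 150 mM NaCl only. It was at 35.8, 35.2 and 25.8 in TNG67 and at 10.99, 12.05 and 18.5 in OE1, a log2 fold change of -1.18 ± 0.30 (SE; limma, adjusted p = 0.0104).

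Os02g0623932, similar to WAK80, was read 3 to 13 times a library at 150 mM NaCl, and Os10g0162844, described by a wall-associated kinase domain, 8 to 15 times a library at 0 mM NaCl. Neither differed detectably between genotypes at this depth, with log2 fold changes of 0.62 ± 0.47 and -0.10 ± 0.39 (SE; limma, adjusted p = 0.366 and 0.889).

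Seen by position, the 4 genes of the chromosome 4 run did not behave alike. Os04g0598800 and Os04g0599000 were called higher under salt in TNG67 and Os04g0598500 was not, and under salt Os04g0598500, Os04g0598900 and Os04g0599000 were called lower in OE1 and Os04g0598800 was not. In the WAK80-like run of chromosome 9 all 3 genes passed an adjusted p below 0.05 upwards under salt in both genotypes and downwards in OE1 at 150 mM NaCl, Os09g0471400 with the exceptions for single libraries given above. In the run from Os09g0561000 to Os09g0562600, Os09g0561500 and Os09g0561600 were called lower in OE1 at 150 mM NaCl, Os09g0561000 was lower on the adjusted p alone and Os09g0562600 was not.

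Genes that act on pectin, which wall-associated kinases bind in Arabidopsis, were counted in the same comparisons. For the lists that follow, the shares of all genes called higher and lower were 9.53% and 9.75% for salt in TNG67, 6.66% and 5.84% for salt in OE1, 2.37% and 2.89% for OE1 at 0 mM NaCl, and 2.44% and 3.49% for OE1 at 150 mM NaCl. On the adjusted p alone the shares were 9.55% and 12.5% for OE1 at 0 mM NaCl, and 11.2% and 14.6% for OE1 at 150 mM NaCl. For the interaction they were 5.20% upwards and 6.17% downwards. Pectinesterases, which remove methyl groups from pectin, and their inhibitors were 28 genes, of which 4 rose and 5 fell under salt in TNG67 and 3 rose and 3 fell in OE1. The median log2 fold changes were 0.09 and 0.08, against 0.00 and 0.01 for all genes. Between genotypes 1 was called higher and 1 lower at 0 mM NaCl, and none at 150 mM NaCl, where 8 were higher and 1 was lower on the adjusted p alone (median 0.31). The interaction passed for 3 upwards and 2 downwards. Among the 13 genes described as inhibitors, 1 was called higher and 3 lower under salt in TNG67, and 2 higher and 2 lower in OE1. Os12g0283400, described by a pectinesterase inhibitor domain, rose under salt in both genotypes, from a mean of 26.2 ± 7.46 to 184 ± 10.95 in TNG67 and from 54.3 ± 18.2 to 240.2 ± 29.9 in OE1 (SD, n = 3), log2 fold changes of 2.80 and 2.18. Os10g0185400, with the same description, fell in both genotypes, with log2 fold changes of -2.40 in TNG67 and -2.51 in OE1.

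The words polygalacturonase or pectate lyase, which name enzymes that cut pectin, matched 23 genes, 6 of them described as inhibitors of such enzymes. Under salt 3 rose and 6 fell in TNG67, and 5 rose and 3 fell in OE1, with medians of -0.11 and -0.12. Of the 6 inhibitors, 2 rose and 2 fell in TNG67, and 3 rose and 1 fell in OE1. The other 17 genes are not all described as enzymes, since the descriptions of Os08g0380100 and Os10g0409400 name a polygalacturonase beta subunit. Of these 17 genes, 1 rose and 4 fell in TNG67, and 2 rose and 2 fell in OE1. In OE1 against TNG67, 1 was called higher at 0 mM NaCl and 2 at 150 mM NaCl, and none lower. On the adjusted p alone 4 and 6 were higher and none lower, and the interaction passed for 4 upwards and 2 downwards. The strongest increase under salt in either genotype was that of Os05g0104200, which encodes a polygalacturonase-inhibiting protein described for sheath blight resistance, from 135 ± 9.12 to 1289 ± 109 in TNG67 and from 256 ± 26.5 to 1585 ± 160 in OE1 (SD, n = 3), log2 fold changes of 3.24 and 2.62. The inhibitors called lower under salt in TNG67 were Os07g0568700 and Os08g0505900, with log2 fold changes of -1.63 and -1.16.

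Other wall receptors and their ligands were counted as well. Of 3 genes described as FERONIA or malectin-like, the group of receptors that also sense the wall, 2 rose under salt in TNG67 and 1 in OE1, and OE1 was lower than TNG67 in 1 of them without salt and in 2 with salt. The malectin-like Os04g0586500 was called in none of these comparisons. Its estimates for OE1 against TNG67 were positive, 0.90 ± 0.33 without salt and 0.57 ± 0.33 with salt (SE; limma, adjusted p = 0.0672 and 0.231). The FERONIA-like Os05g0318600 was at 12.3, 17.0 and 29.0 in TNG67 without salt and at 142, 191 and 117 with salt, and at 4.41, 5.05 and 13.6 and then 25.98, 23.1 and 41.7 in OE1. It thus rose in both genotypes (log2 fold changes 2.94 and 1.95) and was lower in OE1 at both NaCl levels (-1.30 ± 0.38 and -2.29 ± 0.38 SE, limma adjusted p = 0.0203 and 0.000255).

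The malectin-like Os09g0356200 was at 31.3, 32.9 and 29.0 in TNG67 without salt and at 223, 222 and 211 with salt. In OE1 it was at 22.1, 27.3 and 15.6 without salt and at 33.0, 29.1 and 32.1 with salt, and the interaction was -2.23 ± 0.30 (SE; limma, adjusted p = 0.000195). Of 6 genes for RALF peptides, which bind receptors of the FERONIA type, 3 fell under salt in TNG67, 1 fell in OE1 and 1 was lower in OE1 at 0 mM NaCl. This last was Os01g0932950, similar to RALFL33, at 121 ± 15.5 in TNG67 and 53.6 ± 9.88 in OE1 without salt and at 22.5 ± 3.74 and 21.0 ± 4.36 with salt (SD, n = 3).

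MAP kinase cascades act downstream of many receptor-like kinases. The description of 31 genes names such a kinase, though not each encodes one, since Os05g0115800 is described as a MAP kinase phosphatase. Of the 31, 2 rose and 1 fell under salt in TNG67 and 1 rose in OE1, with medians of 0.10 and 0.08. At 0 mM NaCl 1 was called higher in OE1, and at 150 mM NaCl 1 higher and 1 lower. On the adjusted p alone 2 were higher and 9 lower in OE1 at 150 mM NaCl, against 11.2% and 14.6% of all genes, and the interaction passed for 2 upwards and 5 downwards, against 5.20% and 6.17%. The 5 include the phosphatase gene Os05g0115800, with an interaction of -0.41 ± 0.09 (SE; limma, adjusted p = 0.00881). Os02g0135200, similar to MAP kinase 13, rose in both genotypes, from 172 ± 23.5 to 586 ± 69.1 in TNG67 and from 175 ± 7.16 to 427 ± 30.9 in OE1 (SD, n = 3).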

How the data were processed

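RNA was sequenced from 12 rice root libraries, 3 in each of 4 groups taken from the sample labels. The authors trimmed the reads with Trimmomatic 0.38, aligned them with HISAT2 2.1.0 to IRGSP-1.0, counted them per gene and deposited a table for each NaCl level. The deposited signal values were read as counts divided by library size factors. The counting tool, strand setting, normalization and filter are not given in the sources used here. Roots are given by the labels, though the series' own description names terrestrial parts. All values were whole multiples of 1 read within 0.001 reads, and the recovered reads served for depth and for the count-based alternatives. In 3 OE1 libraries 1 read is worth close to 1, so there the recovery rests on this test alone.

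limma 3.58.1 in R 4.3.3 (trend, robust) was fitted to log2(value + 1) of the 24922 genes listed at both NaCl levels in all 12 libraries. Benjamini-Hochberg adjustment was over all genes. Fold changes are on this log2(value + 1) scale, which understates those of low genes. The fit was also run on simulated data, with changes beyond the fold threshold in well-read genes only. The simulation therefore does not cover low genes or changes near the threshold. The p-values rest on the spread between pooled-seedling replicates, 3 to a group. In the fit on 12 libraries that spread was estimated for each gene over all groups together and moderated across genes. Named genes were members with a described function, those of the highest means, the largest called changes, those called in both salt or both genotype comparisons and those called in the interaction. The members and lists were chosen with earlier results of these data known. The alternatives were edgeR 4.0.16 and DESeq2 1.42.0 on the reads, another pseudocount, a filter, scaling by library total, fewer libraries, a replicate block and each library left out. Dropping the fold threshold and the fits of genes listed at 1 NaCl level were chosen after seeing the data. Gene lengths were not used, so levels are not compared between genes.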

Additional observations from a re-analysis of the deposited data

Results flagged for a closer look

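The salt effect on 5 wall-associated kinase genes differed between OE1 and TNG67 in the interaction test of limma. The interaction, on the log2 scale, was -0.91 for Os04g0308100, -0.78 for Os04g0598800, -0.70 for Os03g0225700, -0.65 for Os04g0599000 and 1.50 for Os10g0180800. For the first 4 the salt effect was the smaller or the lower in OE1, and for Os10g0180800 it was near 0 in OE1 and negative in TNG67.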

How the results depend on the processing

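Of the 13 genes, 7 to 8 were called for salt in TNG67, 3 to 5 for salt in OE1, 2 to 4 for OE1 at 0 mM NaCl, 2 to 4 for OE1 at 150 mM NaCl and 4 to 5 for the interaction when each library was left out in turn. Without a fold threshold, 7 were called for salt in OE1, 8 for OE1 at 0 mM NaCl and 10 for OE1 at 150 mM NaCl. Same-numbered libraries showed no clear shared deviation from their group means (18 pairs of same-numbered libraries, 0 correlated over 0.1, highest 0.05). Such correlations cannot tell whether the samples were paired by design. With a replicate block, the counts were 7, 3, 3, 3 and 5 in the same order, and the one call lost was that of Os09g0561500 for OE1 at 0 mM NaCl (adjusted p = 0.0536, limma), which was also lost with the 6 libraries of that comparison alone (0.138).

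Leaving out a library kept direction and call for 248 of 264 values called at first, and the other 16 lost the call. The other settings kept 144 of 149. Values that changed sign were not called under any setting. For OE1 at 0 mM NaCl they were Os04g0308100 (0.018 in edgeR, 0.0015 in DESeq2, 0.016 scaled by library total) and Os09g0471400 (0.0051 in edgeR, 0.0044 scaled by library total), and for OE1 at 150 mM NaCl Os09g0562600 (0.0049 scaled by library total). With a library left out, the range was -0.065 to 0.090 for Os04g0308100 and -0.065 to 0.082 for Os09g0471400 in OE1 at 0 mM NaCl, -0.054 to 0.154 for Os06g0142500 and -0.171 to 0.048 for Os09g0562600 in OE1 at 150 mM NaCl, and -0.97 to 0.19 for Os04g0598500 and -0.14 to 0.25 for Os10g0180800 under salt in OE1. The cause was not tested. Os09g0561500 and Os04g0598500 each had 1 read in their lowest OE1 library.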

Other observations

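Genes that lie inside the WAK80-like run of chromosome 9 but whose description does not name a wall-associated kinase were read as well, and are named for their position. Os09g0471600, described by an EGF-like calcium-binding domain, a feature that wall-associated kinases also carry, was at 14.5, 9.54 and 15.0 in TNG67 and at 0, 1.01 and 2.09 in OE1 at 0 mM NaCl. At 150 mM NaCl it was at 11.9, 25.4 and 16.2 in TNG67 and at 7.99, 4.02 and 3.21 in OE1, so the OE1 values lie near the floor. It was called lower in OE1 at 0 mM NaCl (limma, log2 fold change -2.91, adjusted p = 0.000439) and at 150 mM NaCl (-1.65, adjusted p = 0.0215), and higher under salt in OE1 (1.65, adjusted p = 0.0143). The salt value in TNG67 was 0.39 (limma, adjusted p = 0.541), and the interaction did not pass (1.26 ± 0.71 SE, limma adjusted p = 0.276). Os09g0471500, a conserved hypothetical protein gene, was at 130, 102 and 110 in TNG67 and at 70.6, 43.4 and 57.4 in OE1 at 0 mM NaCl, and was called lower in OE1 at both NaCl levels (-1.004 and -1.54) and higher under salt in TNG67 (1.23). Os09g0471550, also described by an EGF-like calcium-binding domain, was lower in OE1 on the adjusted p alone, at -0.68 and -0.59. The non-coding transcript Os09g0471300 passed in none of the 4 comparisons.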
